A study of Rattus norvegicus with 6 samples.

Results

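Angiopoietins, their Tie receptors, angiopoietin-like proteins, thrombospondins and pigment epithelium-derived factor are secreted or cell-surface regulators of blood vessels, and 10 of their genes were followed here: Angpt1, Angpt2, Tek, Tie1, Angptl2, Angptl4, Thbs1, Thbs2, Thbs3 and Serpinf1. They were chosen by gene name, and each matched 1 row of a table of 22085 genes. All 10 had counts, and all 10 passed the filter on low counts that left 15776 genes to test. RNA came from cells grown out of the amniotic fluid of rats on embryonic day 18.5 and harvested at passage 4. There were 3 libraries from control pregnancies and 3 from dams with modelled preeclampsia, which is a hypertensive disorder of pregnancy. All 6 cultures were grown in the same serum-containing medium. How the model was induced, the rat strain, and how many dams or fetuses each library holds are not given in the sources used here, so p-values measure only the spread between these libraries.

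As background, Angpt1 protein from perivascular and stromal cells activates the receptor Tek (also called Tie2) on endothelium and steadies vessels, while Angpt2 competes for the same receptor and loosens them. Tie1 is a related receptor that binds no angiopoietin strongly by itself and tunes Tek. The angiopoietin-like proteins share the fold of angiopoietins but do not act through Tek. Thbs1 and Thbs2 restrain endothelial growth through the receptors CD36 and CD47, and Thbs1 can also release TGF-beta from its latent form. Pigment epithelium-derived factor, the product of Serpinf1, is a serpin without protease-inhibiting activity that also restrains vessel growth. The balance of such factors is much studied in preeclampsia.

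Total counts lay between 48402185 and 59193961 per library. The labels call the cells mesenchymal stem cells, and all 12 mesenchymal stromal markers examined reached an FPKM (fragment counts corrected for gene length and library depth) of at least 1. Of 10 endothelial markers, 4 reached 1 FPKM in any library, namely Egfl7 (3.26 to 7.53 FPKM), Kdr (up to 3.19), Esam (up to 1.69) and Tie1 (up to 1.28), while the defining markers Pecam1 and Cldn5 were at most at 0.03 FPKM. Libraries differed within groups. Preeclampsia libraries 2 and 3 lay at 69.24 and 68.48 on the first principal component and the other 4 between -44.36 and -17.98, and control library 3 stood apart on the second. The summed FPKM of 11 macrophage markers was 20.6 in control library 3 and 23.9 in preeclampsia library 1, against 108 to 390 in the other 4. The summed FPKM of 10 G2 and M phase genes was 414 in preeclampsia library 1, the remaining 5 lying between 84.4 and 217. Over all 8 lists of cell type and cell cycle markers edgeR called 0 genes in either direction. DESeq2 called 3 mesenchymal stromal markers as higher, 1 mesothelial marker as higher and 1 as lower, 2 epithelial and 2 smooth muscle markers as lower, and 0 of 5 pericyte markers. Of its 13897 genes with an adjusted p, DESeq2 called 2.65% in either direction.

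The 10 genes spanned a wide range of levels. Thbs1 was the most abundant by far, followed by Thbs2 and Serpinf1, and none of these 3 overlapped the next gene in any library. Angptl4, Angptl2, Angpt1 and Thbs3 formed a middle tier between 10.9 and 31.7 FPKM on average over the 6 libraries, in which neighbours in the order overlapped. Angpt2, Tek and Tie1 formed the lowest tier, at means of 0.708, 0.415 and 0.382 FPKM, again with overlapping ranges. The highest library exceeded the lowest by 1.31 times for Thbs1, by 3.14 times for Serpinf1 and by 37.5 times for Angpt2. In bulk RNA, a lower level can come from fewer cells of a type or from less RNA per cell, and these cannot be told apart.

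**Figure D1:**
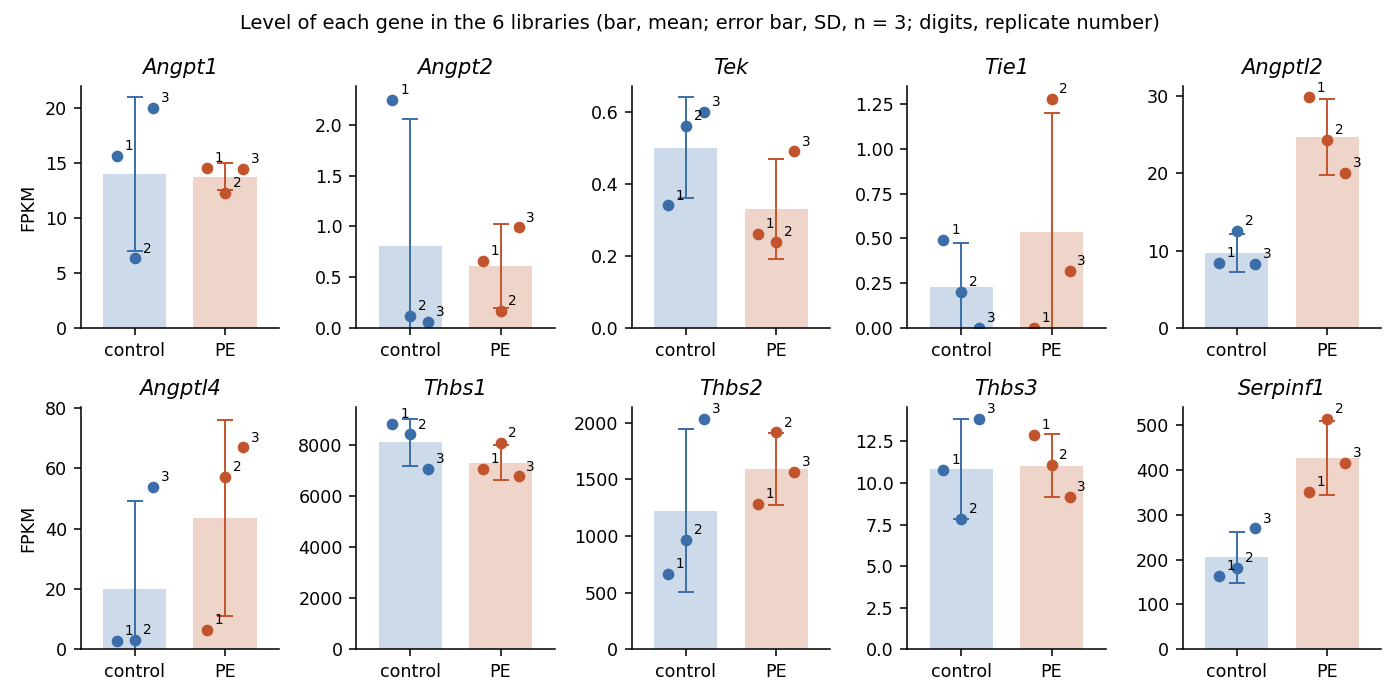
FPKM (y axes, each from 0) of the 10 genes in control and preeclampsia (PE) libraries; points are libraries with their replicate number, bars the mean and error bars the SD (n = 3), cut at 0 where they would pass below it. In Angptl2 and Serpinf1 the 3 preeclampsia points all lie above the 3 control points, while in the other 8 genes the groups overlap.

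The comparison asked whether any of these genes differed between cells of preeclamptic and control pregnancies. Angptl2 and Serpinf1 stood higher in all 3 preeclampsia libraries than in any control library, Thbs1, Thbs3 and Angpt1 were at close means in the 2 groups, and the groups also overlapped in the other 5 genes. By edgeR's quasi-likelihood test with Benjamini-Hochberg adjustment, 0 members had an adjusted p under 0.05, as did 0% of all tested genes. Angptl2 and Serpinf1 had an unadjusted p under 0.05 in the higher direction, as did 4.13% of tested genes, and 9.19% did so in either direction. DESeq2 called these same 2 members, both higher, where it called 1.17% of its 13897 genes with an adjusted p as higher and 2.65% in either direction. By limma on log2 FPKM the count was 0. The groups did not overlap with preeclampsia higher in 2 of the 10 members, against 6.15% of tested genes, and with preeclampsia lower in 0, against 8.32%. The median log2 fold change was 0.23 over the members and 0.014 over all tested genes, and 0.67 and 0.0054 with the replicate number as a block.

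**Figure D2:**
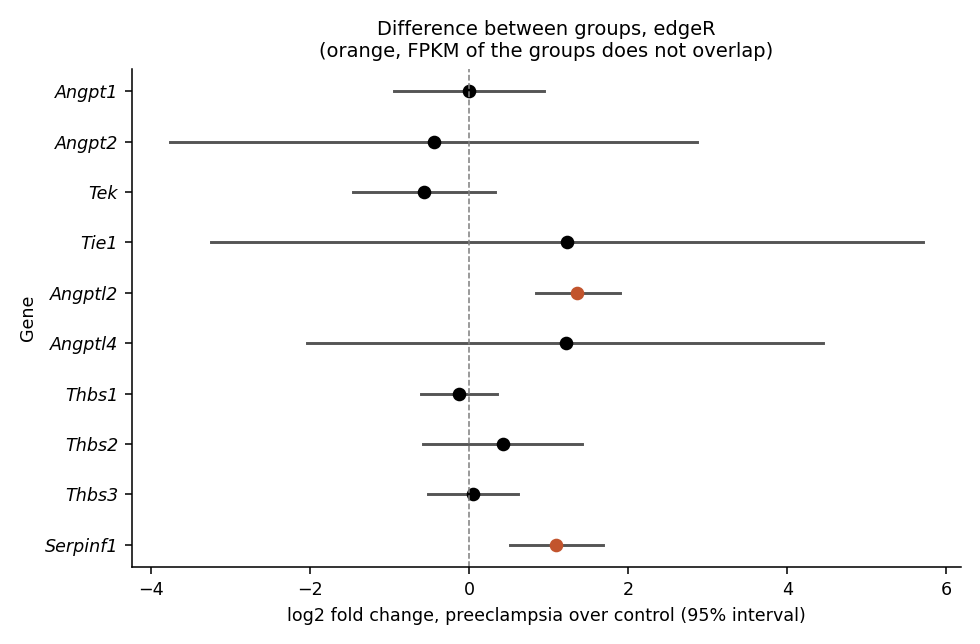
Log2 fold change of preeclampsia over control (x axis) for each gene (y axis) from edgeR's quasi-likelihood fit over 15776 genes, with the 95% interval as a line; orange points mark genes whose groups do not overlap in FPKM. The intervals of Angptl2 (0.84 to 1.89) and Serpinf1 (0.51 to 1.68) lie above 0, and those of Angpt2, Tie1 and Angptl4 are several log2 units wide.

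Angptl2 encodes a secreted glycoprotein linked to inflammation and tissue remodelling. Its level lay at 8.37, 12.5 and 8.28 FPKM across control replicates 1 to 3 against 29.9, 24.3 and 20.04 FPKM across the preeclampsia replicates. The lowest preeclampsia library thus lay above the highest control library, and preeclampsia library 1, which held few macrophage markers and many G2 and M phase transcripts, was the highest of all. Group means were 9.73 ± 2.43 and 24.7 ± 4.92 FPKM (SD, n = 3 each), a log2 fold change of 1.36 (SE 0.22) or 2.57 times (95% interval 1.79 to 3.70). In edgeR's test the adjusted p was 0.313, and by p it ranked 27 of the 15776 tested genes. DESeq2 gave 1.38 with an adjusted p of 1.2e-05. With each library left out in turn the edgeR log2 fold change stayed between 1.24 and 1.58. Angptl2 lies on the plus strand at chr3:16517185-16547024 (all gene positions are those of the deposited table) within the span of Ralgps1, a gene on the minus strand. The sources used here do not say whether counting used the strand, so reads of the pair may not be fully separable. Ralgps1 was at 1.77 to 5.12 FPKM and had a log2 fold change of -0.59, opposite in sign to that of Angptl2.

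Serpinf1 was the third most abundant member. It stood at 164, 181 and 269 FPKM in the controls, by replicate number, versus 351, 514 and 416 FPKM under preeclampsia. The groups did not overlap, and control library 3 was the closest to the preeclampsia libraries. Means were 205 ± 56.7 and 427 ± 82.2 FPKM (SD, n = 3 each), a log2 fold change of 1.09 (SE 0.24) or 2.14 times (95% interval 1.43 to 3.20). The adjusted p was 0.395 by edgeR and 0.0050 by DESeq2, which gave 1.10. Leaving out single libraries moved the edgeR value between 0.91 and 1.32. Among all genes of the table, Serpinf1 ranked between 255 and 446 by FPKM in the control libraries and between 125 and 194 in the preeclampsia libraries. It spans chr10:60250198-60262593 on the minus strand.

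Markers of stromal cells were read beside these 2 genes. Of 12 mesenchymal stromal markers, 9 had positive and 3 negative log2 fold changes, 0 were called by edgeR in either direction, 4 had an unadjusted p under 0.05, and the groups did not overlap with preeclampsia higher in 4, Pdgfra, Col1a2, Lum and Dcn (named after their values were seen). DESeq2 called 3 of them, all but Col1a2. Over all tested genes, 6.15% were higher without overlap and 9.19% had such a p, and DESeq2 called 1.17% as higher. In the other direction Cd44, an adhesion receptor gene of the list, had a log2 fold change of -0.78, Eng of -0.25 and Pdgfrb of -0.022. That of Thy1 was 0.016. Lum, a small collagen-binding proteoglycan, had means of 72.2 ± 35.6 FPKM (control) and 421 ± 185 FPKM (preeclampsia) (SD, n = 3 each). The summed FPKM of the 12 markers ranged from 4510 to 6377 among controls and from 6367 to 8370 under preeclampsia, none being at 0 in a library. The part of these markers in the values of Angptl2 and Serpinf1 was not tested.

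The start regions of Angptl2, Serpinf1 and Angptl4 are shown because the first pair did not overlap between groups and the last varied most among the abundant members. RefSeq sequences of the GRCr8 build were given for 6 of the 10 members (Angptl2, Angptl4, Serpinf1, Thbs1, Thbs3 and Tie1), each with 250 bases before and 50 after the gene's start. Capitals mark matches, on either strand, to the hypoxia response core ACGTG, the GC box GGGCGG, the TATA box TATAAA, the AP-1 site TGACTCA or the TEAD core CATTCC.
Angptl2, chr3:36914626-36914925, plus strand: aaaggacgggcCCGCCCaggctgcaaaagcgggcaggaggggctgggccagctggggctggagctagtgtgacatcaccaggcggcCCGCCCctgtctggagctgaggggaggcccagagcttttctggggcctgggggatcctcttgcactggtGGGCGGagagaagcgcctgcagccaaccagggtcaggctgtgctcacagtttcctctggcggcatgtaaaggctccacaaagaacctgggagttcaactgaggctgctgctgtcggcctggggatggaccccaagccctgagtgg
Serpinf1, chr10:60760849-60761148, minus strand: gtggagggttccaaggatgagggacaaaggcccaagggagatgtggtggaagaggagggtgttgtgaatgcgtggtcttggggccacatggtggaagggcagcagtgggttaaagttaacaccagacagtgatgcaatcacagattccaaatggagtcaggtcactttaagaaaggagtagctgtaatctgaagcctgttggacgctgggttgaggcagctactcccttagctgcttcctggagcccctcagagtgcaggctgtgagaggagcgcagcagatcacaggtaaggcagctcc
Angptl4, chr7:15258632-15258931, minus strand: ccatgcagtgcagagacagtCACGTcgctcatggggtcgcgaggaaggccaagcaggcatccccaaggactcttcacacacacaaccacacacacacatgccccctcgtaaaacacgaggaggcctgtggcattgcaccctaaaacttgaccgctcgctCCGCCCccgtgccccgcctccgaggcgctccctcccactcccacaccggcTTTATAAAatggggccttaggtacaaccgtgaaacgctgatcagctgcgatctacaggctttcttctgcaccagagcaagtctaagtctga
The Angptl2 window held 3 GC boxes and was 65.3% G and C, against a median of 51.7% over 33469 promoters. The Serpinf1 window was 54.3% G and C, and none of the 5 motifs occurs in it. The Angptl4 window held an ACGTG match 230 bases before the start, a GC box and 2 overlapping TATAAA matches, one on each strand, 41 and 39 bases before the start. Over all promoters of that length, 33.1% held the GC box, 19.3% the hypoxia core, 14.2% the TATA box, 14.2% the TEAD core and 4.63% the AP-1 site. Of the 6 members, the GC box occurred in 5, the hypoxia core and the TATA box only in Angptl4, the TEAD core in 1 (Thbs1) and the AP-1 site in 0. These matches describe letters in a window and are not measured binding sites.

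Angptl4 encodes an inhibitor of lipoprotein lipase whose gene responds to PPAR receptors and to low oxygen in many tissues. It came to 2.86, 3.02 and 53.8 FPKM over replicates 1 to 3 of the controls, compared with 6.38, 57.2 and 67.0 FPKM over those of the preeclampsia group. Control library 3 and preeclampsia libraries 2 and 3 were thus high and the other 3 low, with a 23.4-fold span over the 6 libraries and both states in each group. The log2 fold change was 1.21 (SE 1.34, 95% interval -2.04 to 4.45), with an adjusted p of 0.848 by edgeR. It was 3.90 without control library 3 (adjusted p = 0.367 by edgeR) and 1.72 without preeclampsia library 1. It was 0.70 without control library 1, 0.69 without control library 2 and 0.76 without preeclampsia library 3. With both libraries low in macrophage markers left out, which are also the 2 whose Angptl4 level resembles the other group, edgeR gave 4.42 with an adjusted p of 0.025. That fit was chosen after seeing the data, rests on 2 libraries per group, and called 0.165% of tested genes as higher. Angptl4 spans chr7:14550288-14557797.

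Angptl8, which encodes another regulator of lipoprotein lipase, had its 3 highest levels in the same libraries as Angptl4. It lay at 0.24, 0.74 and 2.90 FPKM across control replicates 1 to 3 against 0.88, 4.83 and 4.23 FPKM across the preeclampsia replicates. The log2 fold change was 1.43 (SE 0.99), with an adjusted p of 0.737 by edgeR. Lpl itself, the lipase gene, named after its values were seen, was at 16.8, 28.1 and 34.1 FPKM in control library 3 and preeclampsia libraries 2 and 3, and between 5.96 and 12.5 FPKM in the other 3. The other family members were at low levels. Angptl6 had means of 0.0733 ± 0.0252 FPKM (control) and 0.0800 ± 0.0520 FPKM (preeclampsia) and Angptl7 had 0.0800 ± 0.0300 and 0.203 ± 0.0971 FPKM, respectively (SD, n = 3 each). The groups of Angptl7 did not overlap, preeclampsia being higher, from 8 to 53 counts per library (log2 fold change 1.38, SE 0.58, adjusted p = 0.551 by edgeR). Angptl1 had counts in 1 library only, at 0.11 FPKM. All 5 tested genes of the family had positive log2 fold changes, as did 8151 of the 15776 tested genes. The median of 1.36 was the value of Angptl2 itself, and Angptl6 (0.16, SE 0.67) rested on 7 to 20 counts per library. The median was positive also with RLE scaling, DESeq2, limma and the replicate block, but 0 were called by edgeR in either direction. Angptl2 alone had an unadjusted p under 0.05 or a DESeq2 call.

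Thbs1, a trimeric matrix protein, was among the most abundant transcripts of these cells. It stood at 8839, 8415 and 7075 FPKM in the controls, by replicate number, versus 7073, 8080 and 6773 FPKM under preeclampsia. By FPKM it ranked first of all genes in control libraries 1 and 2 and preeclampsia library 3, and second in the other 3. It took 2.13% ± 0.242 of all counts of a control library and 1.92% ± 0.182 of all counts of a preeclampsia library (SD, n = 3 each). The groups overlapped, and the log2 fold change was -0.13 (SE 0.20, 95% interval -0.61 to 0.35), so the interval spans 0.654 to 1.27 times (adjusted p = 0.889 by edgeR). The gene lies at chr3:105056286-105071445 on the plus strand.

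Thbs2, a close relative of Thbs1 that also restrains vessel growth and shapes collagen fibrils, varied more. Its level came to 669, 964 and 2036 FPKM over replicates 1 to 3 of the controls, compared with 1282, 1915 and 1570 FPKM over those of the preeclampsia group. Control library 3 was the highest of all 6, and the other 2 controls were the lowest. Means were 1223 ± 720 and 1589 ± 317 FPKM (SD, n = 3 each), a log2 fold change of 0.42 (SE 0.41, 95% interval -0.58 to 1.42) with an adjusted p of 0.826 by edgeR. Without control library 3 the log2 fold change was 0.98. It was 0.15 and 0.28 without control libraries 1 and 2, and 0.24 without preeclampsia library 2. As a share of Thbs1 in the same library, Thbs2 FPKM amounted to 7.57%, 11.5% and 28.8% over replicates 1 to 3 of the controls, and to 18.1%, 23.7% and 23.2% over those of the preeclampsia group. This ratio, taken after the levels were seen and not tested, was lowest in control libraries 1 and 2. Thbs2 spans chr1:55670394-55699789.

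Thbs3 belongs with Thbs4 and Comp to the pentameric thrombospondins of cartilage, tendon and other tissues. It lay at 10.8, 7.86 and 13.9 FPKM across control replicates 1 to 3 against 12.9, 11.1 and 9.15 FPKM across the preeclampsia replicates. The ranges overlapped throughout, with a log2 fold change of 0.046 (SE 0.23, 95% interval -0.52 to 0.61) and an adjusted p of 0.969 by edgeR. Thbs4 reached 2.79 FPKM in preeclampsia library 1 but at most 0.27 FPKM in any other library (log2 fold change 3.98, SE 1.80). Comp did not pass the filter, its highest level being 0.58 FPKM in preeclampsia library 3. Thbs1 alone made up between 77.5% and 92.9% of the summed FPKM of the 5 thrombospondin genes, control library 3 having the lowest share. No thrombospondin gene was called by edgeR or DESeq2, and 0 of the 4 tested had an unadjusted p under 0.05 in edgeR. Thbs3 lies at chr2:174621788-174633594.

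Among the angiopoietin ligands, Angpt1 prevailed in every library. Angpt1 stood at 15.6, 6.32 and 19.99 FPKM in the controls, by replicate number, versus 14.5, 12.3 and 14.4 FPKM under preeclampsia. The control libraries held both the lowest and the highest value, with the preeclampsia libraries between them. Means were 14.0 ± 6.98 and 13.8 ± 1.26 FPKM (SD, n = 3 each). The log2 fold change was -0.0054 (SE 0.39, 95% interval -0.95 to 0.94), with an adjusted p of 0.997 by edgeR, and its sign changed with the scaling. Angpt1 spans chr7:73528345-73783953.

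Angpt2, whose product endothelial cells store and release on activation, came to 2.25, 0.12 and 0.06 FPKM over replicates 1 to 3 of the controls, compared with 0.66, 0.17 and 0.99 FPKM over those of the preeclampsia group. Control library 1 stood far above the other 2 controls, and the preeclampsia libraries lay between it and them. The log2 fold change was -0.45 (SE 1.37, 95% interval -3.77 to 2.86; adjusted p = 0.944 by edgeR), and 2.78 without control library 1. Leaving out control library 2 gave -0.96, control library 3 gave -0.99, preeclampsia library 3 gave -1.03 and preeclampsia library 2 gave -0.015. Angpt2 lies at chr16:71088364-71138805 within the span of Mcph1 on the other strand, which was at 1.59 to 4.21 FPKM. The log2 ratio of Angpt2 to Angpt1 FPKM was, by replicate, -2.80, -5.72 and -8.38 for the controls and -4.46, -6.18 and -3.87 for preeclampsia. Angpt1 thus exceeded Angpt2 by 6.94 to 333 times, and the widest and narrowest ratios were both in controls. Group means differed by 0.80, with an exact two-sided permutation p of 0.7, where 3 libraries against 3 cannot go below 0.1. Another ligand gene, Angpt4, averaged 0.877 ± 0.907 FPKM in controls versus 0.520 ± 0.236 FPKM in preeclampsia (SD, n = 3 each).

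Both receptor genes were scarce. Tek lay at 0.34, 0.56 and 0.60 FPKM across control replicates 1 to 3 against 0.26, 0.24 and 0.49 FPKM across the preeclampsia replicates, from 188 to 422 counts. Preeclampsia libraries 1 and 2 lay below all controls and preeclampsia library 3 lay among them. The log2 fold change was -0.57 (SE 0.37, 95% interval -1.46 to 0.32; adjusted p = 0.714 by edgeR), and -0.98 without preeclampsia library 3. Tek spans chr5:109607077-109733805.

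Tie1, on the same chromosome at chr5:132000013-132019658, stood at 0.49, 0.20 and 0 FPKM in the controls, by replicate number, versus 0, 1.28 and 0.32 FPKM under preeclampsia. The 2 libraries without a count each allow up to 3 counts, or 0.0582 and 0.0578 CPM, a bound that covers counting error only. The log2 fold change of 1.23 (SE 1.85, 95% interval -3.25 to 5.71; adjusted p = 0.889 by edgeR) was -0.55 without preeclampsia library 2. Leaving out control library 1 gave 2.45, and leaving out control library 3 gave 0.64. The libraries at 0 were those lowest in macrophage markers, and preeclampsia library 2 was highest in both. Of 12 endothelial markers fixed, Emcn and Robo4 had no row of that name in the deposited table. Without Tek and Tie1, the summed FPKM of this list ran from 5.08 to 5.90 among controls and from 5.41 to 9.58 under preeclampsia, most of it from Egfl7. The part of macrophage or endothelial cells in the Tie1 values was not tested.

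**Figure D3:**
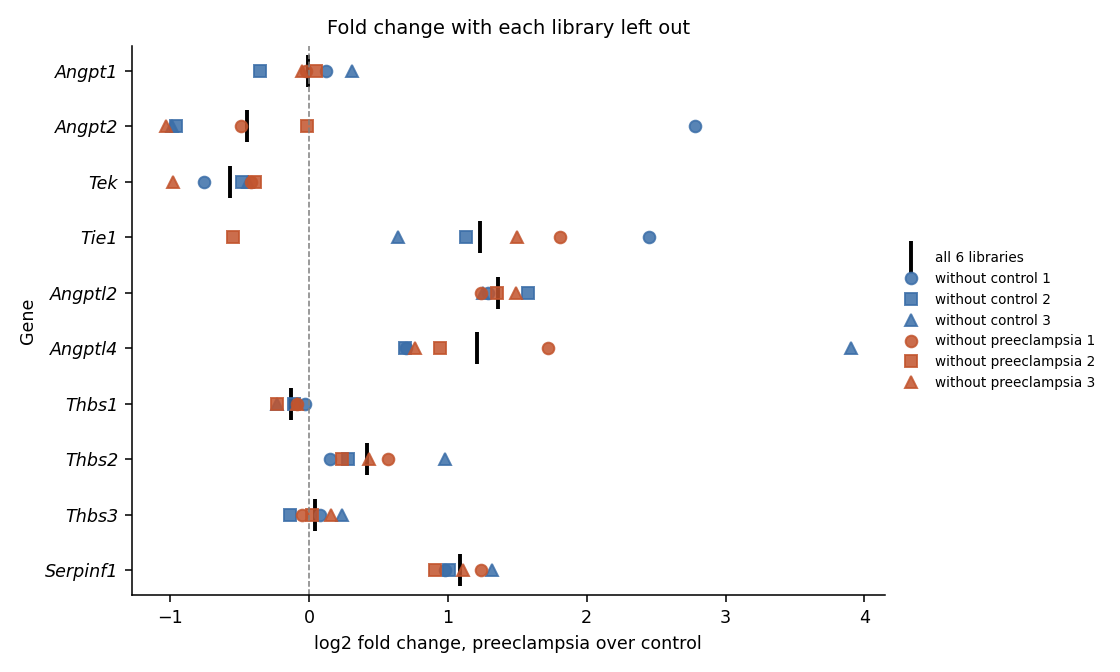
Log2 fold change of preeclampsia over control (x axis) for each gene (y axis) with all 6 libraries (black bar) and with each library left out (blue, a control library; orange, a preeclampsia library). Values for Angptl2 and Serpinf1 stay between 0.91 and 1.58, while Angpt2 reaches 2.78 without control library 1 and Angptl4 reaches 3.90 without control library 3.

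The partners of these ligands were described from lists of their pathways. In the Tie receptor list, which adds Angpt4, the phosphatase gene Ptprb, the Tie1 ligand candidate Svep1, integrins and the transcription factor Foxo1, edgeR called 0 of 10 genes in either direction. An unadjusted p under 0.05 was found for 3 genes (Ptprb, Itgb1 and Foxo1), and 1 call, Foxo1, was made by DESeq2. The median log2 fold change was -0.45. The groups did not overlap in 3 genes, all lower in preeclampsia: Itga5, Itgb1 and Foxo1. Over all tested genes, 8.32% were lower without overlap and 9.19% had such a p, and DESeq2 called 2.65% in either direction. Foxo1, which Tek signalling restrains through AKT, averaged 1.46 ± 0.0751 FPKM in controls versus 0.877 ± 0.153 FPKM in preeclampsia (-0.72, SE 0.18). Ptprb, whose product removes phosphate from Tek, stood at 0.74, 1.76 and 0.04 FPKM over control replicates 1 to 3 and at most at 0.10 FPKM in any preeclampsia library (log2 fold change -4.26). Svep1, a large adhesion protein of the matrix, had means of 557 ± 513 FPKM (control) and 564 ± 174 FPKM (preeclampsia), control library 3 alone reaching 1149 FPKM. Itga5, a fibronectin receptor subunit, averaged 34.4 ± 5.53 FPKM in controls versus 28.3 ± 3.12 FPKM in preeclampsia (SD, n = 3 each).

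Among 11 thrombospondin receptor genes, 10 were tested and edgeR called 0 in either direction, with 4 (Itgb3, Itga3, Itgb1 and Lrp1) at an unadjusted p under 0.05 and a median log2 fold change of -0.19. The groups did not overlap in 4, all lower in preeclampsia, namely the integrin genes Itgav, Itgb3, Itga3 and Itgb1. Over all tested genes, 9.19% had such a p and 8.32% were lower without overlap, and DESeq2 called 2.65% in either direction. DESeq2 called 2 of the integrin genes, Itgb3 and Itga3 (named, with Itgav, after their values were seen). Itgb3, whose product pairs with that of Itgav, had means of 25.9 ± 7.06 FPKM (control) and 9.22 ± 2.31 FPKM (preeclampsia) (-1.46, SE 0.26). Itga3, which pairs with Itgb1, had means of 53.3 ± 5.47 FPKM (control) and 21.2 ± 10.1 FPKM (preeclampsia) (-1.33, SE 0.33). Itgb1 averaged 973 ± 132 FPKM in controls versus 707 ± 103 FPKM in preeclampsia (-0.45, SE 0.18). The calreticulin gene Calr had means of 1134 ± 290 FPKM (control) and 1291 ± 129 FPKM (preeclampsia) and the endocytic receptor gene Lrp1 of 93.3 ± 16.9 and 137 ± 33.6 FPKM (SD, n = 3 each).

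Of 5 genes for proposed receptors of pigment epithelium-derived factor, edgeR called 0 in either direction and DESeq2 0, with 3 (Rpsa, Plxdc1 and Plxdc2) at an unadjusted p under 0.05 and a median of -0.34. Such a p was found for 9.19% of all tested genes, and 14.5% did not overlap in either direction. Rpsa, a ribosomal and laminin-binding protein gene, averaged 1156 ± 88.5 FPKM in controls versus 1413 ± 106 FPKM in preeclampsia without overlap. Pnpla2, the adipose triglyceride lipase gene, had means of 22.1 ± 2.60 FPKM (control) and 17.2 ± 2.201 FPKM (preeclampsia) without overlap in the other direction. Lrp6, a Wnt co-receptor gene, averaged 18.1 ± 2.82 FPKM in controls versus 15.9 ± 1.62 FPKM in preeclampsia (SD, n = 3 each).

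Since Thbs1 can release TGF-beta, 13 genes of latent TGF-beta and its direct targets were read beside it. EdgeR called 0 in either direction, while 8 had an unadjusted p under 0.05, and the median log2 fold change was -0.56. The groups did not overlap with preeclampsia lower in 5 (Tgfb1, Tgfb2, Tgfb3, Ccn2 and Smad7) and higher in 1 (Tgfbi). The shares of all tested genes were 8.32% lower and 6.15% higher without overlap, and 9.19% with an unadjusted p under 0.05. DESeq2 called 4, all lower, namely Tgfb2, Tgfb3, Ccn2 and Smad7, where it called 2.65% of its genes in either direction. Ccn2, a matricellular target, averaged 2092 ± 239 FPKM in controls versus 665 ± 120 FPKM in preeclampsia. Ltbp2, a latent-binding protein gene, had means of 252 ± 24.1 FPKM (control) and 268 ± 37.5 FPKM (preeclampsia) (SD, n = 3 each). Of the genes without overlap, log2 fold changes were -0.59 for Tgfb1, -1.82 for Tgfb2, -2.19 for Tgfb3, -1.63 for Ccn2 and -0.68 for Smad7. Tgfbi went the other way, at 2.16 (SE 0.81). These values stood beside -0.13 for Thbs1, and the differences between genes were not tested.

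Angptl4 responds to both lipid and oxygen signals elsewhere, so both sets were read. Of 17 PPAR and lipid genes, 14 were tested, edgeR called 0 in either direction and DESeq2 0, Ppard alone had an unadjusted p under 0.05, and the median was 0.09. Hadha averaged 51.6 ± 4.02 FPKM in controls versus 53.4 ± 4.55 FPKM in preeclampsia, and Acadvl 29.6 ± 4.27 and 30.0 ± 3.20 FPKM, both enzymes of fatty acid oxidation (SD, n = 3 each). Hadha, Acadvl, Cpt1a and Lpl were highest in control library 3 and preeclampsia libraries 2 and 3, as Angptl4 was. The other tested genes of this list were not. The margin over control library 2 was narrow for Acadvl (31.45 against 30.35 FPKM) and Cpt1a (5.04 against 4.97 FPKM). In the hypoxia list 12 of 13 tested genes had positive values, with a median of 0.66, and edgeR called 0 in either direction with 6 at an unadjusted p under 0.05. DESeq2 called 2, Stc1 and Adm, both higher, where it called 1.17% of its genes as higher. The groups did not overlap in 5 of the 13 (Ankrd37, Pdk1, Slc2a1, Stc1 and Hif1a), all higher in preeclampsia. Over all tested genes, 6.15% were higher without overlap and 9.19% had an unadjusted p under 0.05. Stc1, a secreted glycoprotein gene, came to 54.6, 138 and 151 FPKM over replicates 1 to 3 of the controls, compared with 184, 318 and 541 FPKM over those of the preeclampsia group. Unlike Angptl4, it separated the groups. Egln3 and Epas1, named after their values were seen, were highest in control library 3 and preeclampsia libraries 2 and 3, as Angptl4 was. Egln3 was at 10.9, 8.07 and 7.06 FPKM there and at most at 4.02 FPKM elsewhere. Epas1 was at 94.1, 33.2 and 23.6 FPKM there and at most at 13.0 FPKM elsewhere. Adm had this order only narrowly, at 36.88 FPKM in control library 3 and 36.79 FPKM in preeclampsia library 1. Vegfa, Ankrd37, Bnip3, Ndrg1, Pdk1, Slc2a1, Ero1a, P4ha1, Stc1 and Hif1a did not have this pattern. P4ha1 had means of 211 ± 56.5 FPKM (control) and 242 ± 5.21 FPKM (preeclampsia) and Vegfa of 176 ± 20.6 and 216 ± 79.6 FPKM (SD, n = 3 each).

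Other matrix-bound inhibitors of vessel growth showed no common direction. Of 12 tested genes 6 were higher and 6 lower, with a median of -0.04 that was 0.0024 with the replicate number as a block. EdgeR called 0 in either direction, while Dcn, Ism1 and Col4a3 had an unadjusted p under 0.05, and the calls of DESeq2 were Dcn as higher and Col4a3 as lower. The shares over all genes were 9.19% for such a p and 2.65% for a DESeq2 call. Col4a1 averaged 1008 ± 228 FPKM in controls versus 844 ± 220 FPKM in preeclampsia, Timp2 842 ± 54.7 and 832 ± 87.2 FPKM and Sparc 735 ± 85.1 and 886 ± 220 FPKM (SD, n = 3 each).

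**Figure D4:**
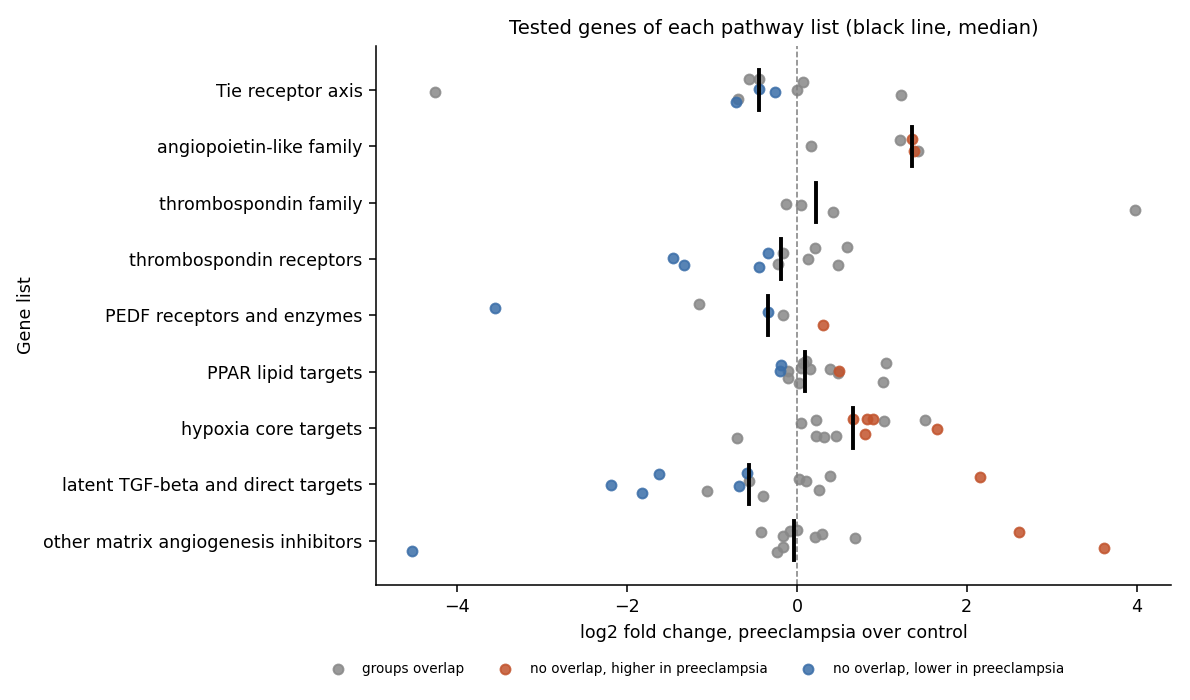
Log2 fold change of preeclampsia over control (x axis) for each tested gene of the 9 pathway lists (y axis); black lines are list medians, and orange and blue points are genes whose groups do not overlap in FPKM. Medians run from -0.56 for latent TGF-beta and its targets to 1.36 for the angiopoietin-like family.

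For the most abundant member of each of 4 classes, the genes most alike over the 6 libraries were found by the Pearson correlation of log2 CPM (counts scaled to library size) among 13445 other genes with a symbol. The values describe 6 libraries in 2 groups. Closest to Serpinf1 were Fyn, a Src-family kinase gene (r = 0.995), and Fbxl12, an F-box protein gene (r = 0.993). Fyn lay at 6.01, 6.91 and 9.79 FPKM across control replicates 1 to 3 against 11.4, 16.2 and 14.6 FPKM across the preeclampsia replicates, in the same order of libraries as Serpinf1. Closest to Angptl4 were Atp8b4, a lipid flippase gene (r = 0.997), and the homeobox gene Hoxb6 (r = 0.995), and 98 genes exceeded 0.95. Hoxb6 stood at 0.17, 0.24 and 2.25 FPKM in the controls, by replicate number, versus 0.48, 3.08 and 3.13 FPKM under preeclampsia, with the same 3 libraries high. Closest to Thbs1 were Tmem250 (r = 0.989) and the adhesion scaffold gene Nedd9 (r = 0.976), with 9 genes above 0.95. Closest to Angpt1 were Mpig6b (r = 0.984) and Bco1 (r = 0.976), both at or under 0.27 FPKM in every library.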

How the data were processed

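Poly(A) RNA of 6 cultures was sequenced, per the labels' protocols, with adapters carrying molecular identifiers. The sources used here do not say whether reads were collapsed by them, nor which genome build was used. Among tools, cutadapt 1.9, HISAT2 2.2.1, StringTie 2.1.6 and FastQC are listed per the submitters' processing notes. Gene coordinates are those of the table, whose sequence names are those of mRatBN7.2, while promoters are from GRCr8. For every gene and library the authors deposited a count, as a whole number, and an FPKM, per the file headers. FPKM equalled the count times 1 factor per gene and 1 per library to within 0.015 log2 over 2894 genes above 20 FPKM. Of counts from 1 to 15, 35.1% to 38.0% per library were multiples of 4 (20% if evenly spread), so low counts, such as those of Tie1, may not be single reads.

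Libraries were grouped by title, 3 per group, and no pair were duplicates (smallest chi-square per degree of freedom 140). The filter was filterByExpr and the scaling TMM. The quasi-likelihood test came from edgeR 4.0.16 (R 4.3.3), with 1 term for group, and p-values were adjusted by Benjamini-Hochberg over 15776 genes; called means an adjusted p under 0.05. The common biological coefficient of variation was 0.418; at these depths precision rests on the number of libraries. Non-overlap was judged on FPKM. The members, the 9 pathway lists and 8 marker lists were chosen with earlier results of these data known. Named genes were the 10 members, their other family members, and per list the 3 with the highest mean FPKM; some of these are not reported here. Genes outside this rule were named after their values were seen, most because a count of 5 or fewer included them. Motifs were chosen after the data were seen.

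Alternatives were DESeq2 1.42.0 (same genes, independent filtering at 0.05), RLE scaling, no filter, a block for the replicate number, and each library left out with the same genes kept. In addition limma 3.58.1 was run on log2(FPKM + pseudocount) (pseudocount 1, 0.5 or 0.1) for genes with a mean of at least 1 FPKM, and without that filter; on this scale the changes of low genes come out too small. Added after seeing the data were limma over the genes of the count test and edgeR without the 2 libraries low in macrophage markers. Scripts were tested on simulated counts of 15253 genes. Of 50 genes changed 2-fold, edgeR recovered 8 and DESeq2 21, and of 50 changed 4-fold, 34 and 43. Among genes simulated without a change, edgeR called 14 and DESeq2 89. The simulation drew each gene independently with the spread that edgeR had estimated, so its recovery may not carry over to the data. In the data edgeR called 0 genes, the mesothelial marker Msln included (log2 fold change 3.38, SE 0.31, adjusted p = 0.228 by edgeR). A lack of edgeR calls thus leaves 2-fold and larger changes undecided. In the simulation the DESeq2 calls included more false ones.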

Additional observations from a re-analysis of the deposited data

How the results depend on the processing

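No member was called by edgeR with RLE scaling, no filter, a block for the replicate number or any single library left out, nor by limma with any pseudocount or filter. DESeq2 called 368 genes and 2 members, Angptl2 (log2 fold change 1.38) and Serpinf1 (1.10), where edgeR called 0. With the 2 libraries low in macrophage markers left out, edgeR called 43 genes and 1 member, Angptl4 (4.42). That fit was chosen after seeing the data. The 2 libraries are also those whose Angptl4 level resembles the other group, so the call is no separate support for a difference. With single libraries left out edgeR called between 0 and 2 genes, 1 without control library 3 and 2 without preeclampsia library 1, none of them members. The cause of these shifts was not tested.

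The members Tek, Angptl2, Angptl4, Thbs1, Thbs2 and Serpinf1 kept their sign in every alternative that tested them. That of Angpt1, -0.0054 in the reported fit, was 0.0036 with DESeq2, 0.0037 with RLE, 0.14 with the block, 0.11, 0.12 and 0.13 with limma at pseudocounts of 1, 0.5 and 0.1, 0.11 with limma without the filter or over the genes of the count test, and 0.29 without the 2 libraries. With a library left out it ran from -0.35 to 0.31. Angpt2 was 0.79 with the block, 0.00082 with limma without the filter or over the genes of the count test, and from -1.03 to 2.78 with a library left out. With a library left out, Thbs3 ran from -0.14 to 0.24 and Tie1 from -0.55 to 2.45. The difference in the log2 ratio of Angpt2 to Angpt1, 0.80, ran from -0.58 (without control library 3) to 2.21 (without control library 1) with a library left out. The replicate numbers share no stated source, and same-numbered libraries deviated together only weakly (correlations of 0.048, 0.041 and 0.010). The block left the count of calls at 0. Angpt2, Tek and Tie1 were tested by limma only without the FPKM filter, since their means were under 1. Tie1 had the lowest counts of the members, from 0 to 173 per library.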
